A study of Mus musculus with 12 samples.

Results

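Klhl24 and Rwdd2b are the 2 genes described here, out of 35129 entries of a table of fragment counts from cortical neurons of mice given nicotine or saline. They were picked because, in some fits to these counts, their level in Thy1-neurons differed between nicotine and saline. The values of the Thy1 libraries therefore chose the genes and are given below as a description, while the Sst libraries are the contrast that the choice did not use. Both entries are found in the table by symbol, and both held counts. Hand-picked neurons came from GIN mice (strain background FVB), in which eGFP labels a subset of the cortical interneurons that make somatostatin, and from YFPH mice (strain background B6), in which a Thy1-driven YFP labels pyramidal neurons of layer V. Male mice of 5 to 7 weeks, weighing 20 g, carried a subcutaneous osmotic mini pump that gave nicotine hydrogen tartrate at 48 mg/kg/d (the groups Sst+Nic and Thy1+Nic) or saline (Sst and Thy1) for 14 days. Cells were lysed 10 at a time and 30 were taken from each mouse, with 1 library per mouse. Libraries of 10 mice were used: 3 Sst, 2 Sst+Nic, 2 Thy1 and 3 Thy1+Nic, with Sst+Nic replicate 1 and Thy1 replicate 1 not analysed here. Cell type and strain background changed together and cannot be told apart, and a transgene marks only a subset of each cell class.

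KLHL24 belongs to the Kelch-like family, whose members use a BTB domain to dock on Cullin-3 and a Kelch domain to hold a substrate, so that the ubiquitin ligase marks that substrate. It was first studied in brain as a partner of GluK2, a subunit of kainate receptors, the ionotropic glutamate receptors encoded by the Grik genes. RWDD2B carries an RWD domain, a small protein-binding fold also found in the translation regulator GCN2, and little is known of what it does. Nicotine acts on ion channels gated by acetylcholine, which both interneurons and layer V pyramidal neurons of the cortex can carry.

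Both genes are on mouse chromosome 16 (RefSeq, GRCm38.p6). Klhl24 lies on the plus strand at chr16:20097553-20129226, where its longest coding transcript has 8 exons and 8172 bases, of which 1800 are coding. Rwdd2b lies on the minus strand at chr16:87433331-87440592, with 5 exons, a transcript of 2009 bases and 870 coding bases. The exons of neither gene overlap another annotated gene. The first 30 coding bases of each transcript (GENCODE M21, GRCm38) are shown to identify the 2 coding frames, with the start codon in capitals.
Klhl24: ATGgtactaatattgggacgcagattaaac
Rwdd2b: ATGgttgagatggagcaggctgaggcccag

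The 10 libraries held between 2915738 and 4878326 counted fragments. Levels are in CPM, the fragments of an entry scaled to 1e6 fragments counted, and a printed level of 0 CPM means that no fragment was counted, which allows up to 3 counts, or 0.615 to 1.03 CPM depending on the library. Here intervals and limits cover counting error only. The table held 8.83 to 11.6 fragments for each 100 reads that the study mapped, and many entries outside the checked stretches held too few, so CPM and shares of the table are larger than they would be of a whole library. Mitochondrially encoded genes took 16.3% to 22.1% of the fragments in the table for Sst and Sst+Nic libraries and 31.4% to 38.5% of those of Thy1 and Thy1+Nic libraries. Sst mRNA, which encodes somatostatin, was at 53779 to 126088 CPM in the 5 libraries of Sst-neurons and at 1.15 to 49.2 CPM in 4 of the 5 libraries of Thy1-neurons. Thy1 replicate 3 stood apart, with 3795 CPM of Sst mRNA, and values without it are given below. Sst was 1 of 2 interneuron markers read: Chodl, which marks a subset of somatostatin cells, was at 0 CPM in 9 libraries, all 5 of Sst-neurons among them, and had 1 fragment in Thy1+Nic replicate 1. Markers of pyramidal neurons, astrocytes, oligodendrocytes, microglia and red blood cells were not used, because none of their entries passed the check of the table given in the processing notes.

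In Thy1-neurons, Klhl24 was lower in each of the 3 nicotine mice than in either saline mouse, with the mean after saline 2.78 times that after nicotine, and Rwdd2b was present after nicotine and almost without counts after saline. In Sst-neurons both genes were present in every library, and the saline and nicotine groups overlapped for both. The saline-treated Thy1 mice were thus the only group in which Rwdd2b was near 0, and the nicotine-treated Thy1 mice the group with the lowest Klhl24.

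Klhl24, the Cullin-3 adaptor, had 966 and 922 fragments in Thy1 replicates 2 and 3, which is 277 CPM and 253 CPM. After nicotine, Thy1+Nic replicates 1, 2 and 3 had 281, 413 and 364 fragments, or 80.9, 97.6 and 107 CPM. The 3 nicotine libraries all lay below the 2 saline libraries, with a gap of over 100 CPM between the groups and little spread within either. The group means were 265 ± 16.7 CPM (SD, n = 2) and 95.3 ± 13.3 CPM (SD, n = 3), a ratio of 2.78. Of 5747 entries with a mean count of at least 10 in these libraries, 13.7% were lower after nicotine without overlap. Since Klhl24 was chosen on these libraries, nothing is read from its place among them.

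Rwdd2b, the RWD-domain gene, had 1 fragment in Thy1 replicate 2, which is 0.286 CPM with a Wilson 95% interval of 0.0506 to 1.62 CPM. Thy1 replicate 3 had 0 fragments, which allows up to 0.824 CPM. After nicotine the gene had 96, 82 and 216 fragments in Thy1+Nic replicates 1, 2 and 3, or 27.6, 19.4 and 63.6 CPM. Every nicotine library was thus far above both saline libraries, and the highest nicotine library, replicate 3, was also the one with the most Klhl24. The mean after nicotine was 36.9 ± 23.5 CPM (SD, n = 3). Summed over libraries, 394 fragments stood against 1, a ratio per fragment counted of 253 with an exact 95% interval of 45.2 to 10027. This interval and the limits above cover counting error only, and loss of mRNA before sequencing was not tested. The share of entries higher after nicotine without overlap was 7.13% of the same 5747.

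**Figure D1:**
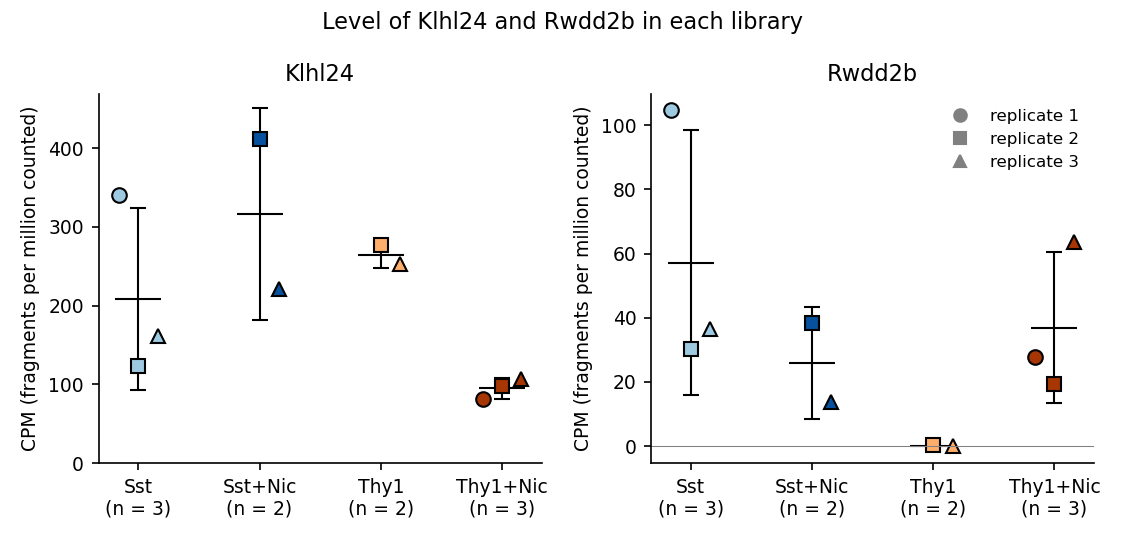
Level of Klhl24 (left) and Rwdd2b (right) in each library, in CPM on a linear axis; each symbol is 1 library (1 mouse), its shape the replicate number, and the bars are the group mean ± SD. Klhl24 in Thy1+Nic, at 80.9 to 107 CPM, lies below every other library, and Rwdd2b is near 0 in the 2 Thy1 libraries and at 13.7 CPM or more in the other 8.

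In the model of the Thy1 and Thy1+Nic libraries, Klhl24 had a log2 fold change of -1.37 (SE 0.30) for nicotine over saline, and Rwdd2b one of 7.77 (SE 1.22). The size of the latter depends on the small count the model adds to libraries at 0. DEGs were called where the adjusted p-value was below 0.05 and the log2 fold change exceeded 1 in either direction. By the quasi-likelihood test of edgeR, 0 of 6048 entries were called (0.0%), with 264 at an unadjusted p-value under 0.05. Ordered by that p-value, Rwdd2b was at rank 1 and Klhl24 at rank 7. DESeq2 called both genes, among 14 entries (0.231%), and limma voom called 0 entries. With no filter on low counts edgeR called Rwdd2b and not Klhl24, among 13 of 13162 entries (0.0988%), and with a filter of 10 counts in a library it again called Rwdd2b alone of the pair, among 7 of 8832 (0.0793%). Both log2 fold changes kept their sign in all 17 fits made to these libraries. Scaled to the reads that the study mapped, an alternative added after the values were seen, they were -1.35 and 7.85, and the mean of Klhl24 after saline was 2.55 times that after nicotine. They were chosen for these values, so the calls describe the choice.

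Thy1 replicate 3, the library with Sst mRNA, moved neither direction. Without it, Thy1 replicate 2 was the only saline library, and Klhl24 had a log2 fold change of -1.32 and Rwdd2b one of 6.98. Sst mRNA itself had a log2 fold change of -6.69 (SE 2.34) for nicotine over saline in Thy1-neurons, not called by edgeR or DESeq2 and called lower under both other filters on low counts, and of 4.15 (SE 2.20) without Thy1 replicate 3. The part of Sst-neuron RNA in the values of Klhl24 and Rwdd2b was not tested. The marker of endothelial cells that could be read, Cldn5 (claudin 5, a tight junction protein of vessels), had 12.1, 0 and 7.36 CPM in Thy1+Nic replicates 1, 2 and 3 and 0 CPM in both Thy1 libraries. Rwdd2b was at 19.4 CPM in Thy1+Nic replicate 2, where Cldn5 was at 0. Cldn5 was 1 of 4 endothelial markers, the other 3 were not read, and the part of such cells in the result was not tested. In libraries of pooled cells, fewer cells with an mRNA and less of it per cell cannot be told apart.

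In Sst-neurons the same treatment was compared to see whether either gene moved in a second cell class. Klhl24 was at 341, 123 and 162 CPM in Sst replicates 1, 2 and 3 (1370, 484 and 599 fragments). After nicotine it was at 412 CPM in Sst+Nic replicate 2 and 221 CPM in replicate 3 (1200 and 1079 fragments). The groups overlapped, since Sst replicate 1 lay between the 2 nicotine libraries. The means were 209 ± 116 CPM (SD, n = 3) and 316 ± 135 CPM (SD, n = 2).

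Rwdd2b was at 105, 30.4 and 36.4 CPM in Sst replicates 1, 2 and 3, from 421, 119 and 135 fragments. After nicotine it was at 38.4 CPM in Sst+Nic replicate 2 and 13.7 CPM in replicate 3, from 112 and 67 fragments. One nicotine library was lower than every saline library and the other lay among them, so that the groups overlapped. The means were 57.2 ± 41.3 CPM (SD, n = 3) and 26.1 ± 17.5 CPM (SD, n = 2). In the 5 libraries of Sst-neurons both genes had the same order within a group: replicate 1 was the highest of the 3 Sst libraries and replicate 2 the lowest, and replicate 2 was the higher of the Sst+Nic pair.

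Neither gene was called in Sst-neurons, and with 3 against 2 libraries the tests could not settle whether either changed. For Klhl24 the log2 fold change of nicotine over saline was 0.41 (SE 0.41), with an adjusted p-value of 0.9998 by edgeR's quasi-likelihood test. For Rwdd2b it was -1.33 (SE 0.70), again with an adjusted p-value of 0.9998 by edgeR. Of 6689 entries, 0 were called (0.0%), with 280 at an unadjusted p-value under 0.05, and DESeq2 called 19 (0.284%), neither gene among them. A two-sided exact permutation test of log2(CPM + 1) gave a mean difference of 0.67 and p = 0.4 for Klhl24, and -1.05 and p = 0.5 for Rwdd2b, where the smallest p-value that 3 against 2 libraries can give is 0.1. The fitted value of Klhl24 moved with single libraries and was 0.03 without Sst+Nic replicate 2 and 0.83 without Sst replicate 1. For Rwdd2b it was -2.09 without Sst+Nic replicate 2 and -0.70 without Sst replicate 1. A drop of Klhl24 in Sst-neurons as large as in Thy1-neurons was seen in none of the 17 fits, whose log2 fold changes ran from 0.03 to 0.83.

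**Figure D2:**
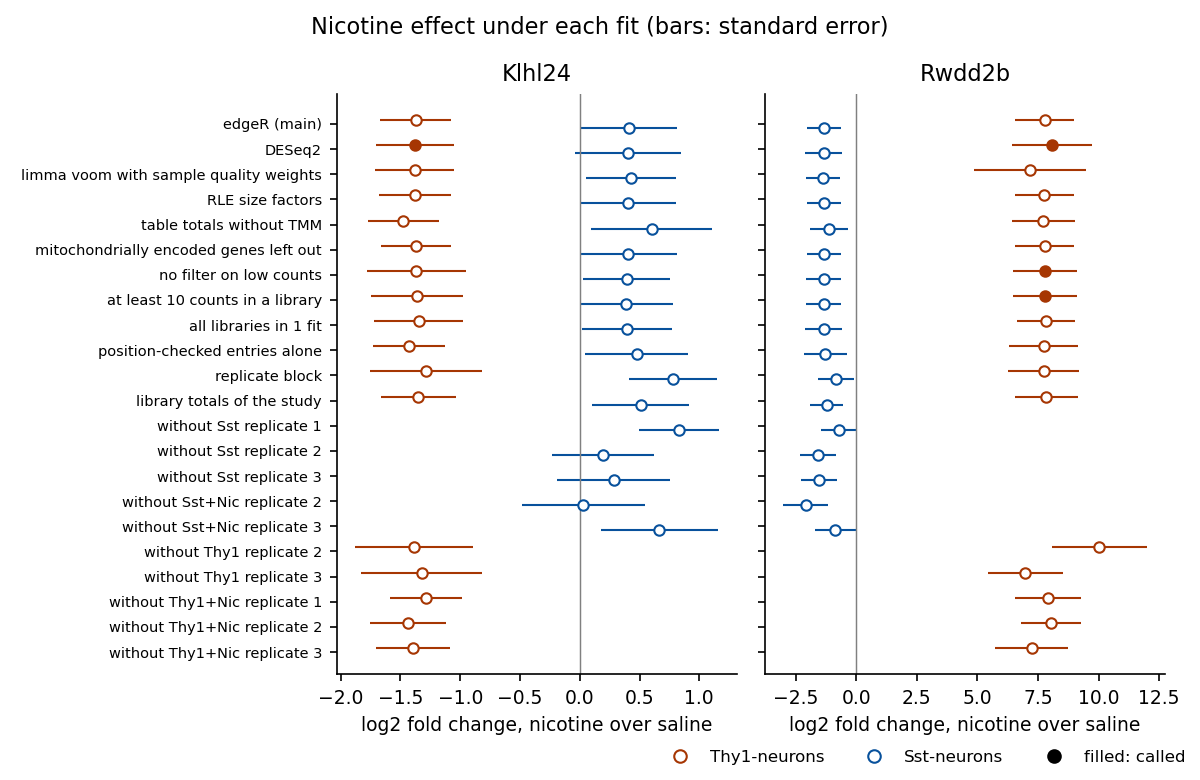
Log2 fold change of nicotine over saline for Klhl24 (left) and Rwdd2b (right) in Thy1-neurons and in Sst-neurons under each of the 17 fits per cell type; bars are the standard error and filled symbols are called DEGs. In Thy1-neurons Klhl24 stays between -1.48 and -1.28 and Rwdd2b between 6.98 and 10.04, while in Sst-neurons Klhl24 lies between 0.03 and 0.83 and Rwdd2b between -2.09 and -0.70, with no filled symbol.

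Set beside each other, the 4 groups ran in a different order for the 2 genes. For Klhl24 the mean level was highest in Sst+Nic, then Thy1, then Sst, and lowest in Thy1+Nic. Neighbours in that order overlapped between libraries except for the last pair, where the lowest Sst library (123 CPM, 95% interval 113 to 135) was above the highest Thy1+Nic library (107 CPM, 95% interval 96.8 to 119) with overlapping counting intervals. For Rwdd2b the order was Sst, Thy1+Nic, Sst+Nic and Thy1. The first 3 groups overlapped with their neighbours, and the 2 Thy1 libraries were separate from all others.

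Between the cell types, the groups overlapped for Klhl24 after saline and for Rwdd2b after nicotine. They did not for Klhl24 after nicotine and for Rwdd2b after saline. The share of all entries without overlap between cell types was not counted, so nothing is read from these separations. After saline, Klhl24 had a log2 fold change of -0.56 (SE 0.38) for Sst- over Thy1-neurons, and it was -1.03 (SE 0.24) without Sst replicate 1. After nicotine it was 1.20 (SE 0.35), and both Sst+Nic libraries lay above the 3 Thy1+Nic libraries, with a ratio of means of 3.32. Rwdd2b had 675 fragments in the 3 Sst libraries against 1 in the 2 Thy1 libraries, a ratio per fragment counted of 413 (exact 95% interval 73.9 to 16352). After nicotine it had a log2 fold change of -1.0 (SE 0.70). Subtracting the effect of nicotine in Thy1-neurons from its effect in Sst-neurons left 1.74 (SE 0.53) for Klhl24 and -9.19 (SE 1.44) for Rwdd2b, on the log2 scale. These values share the Thy1 libraries on which the genes were chosen and are given without a test.

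Per kilobase of all annotated exons (10183 bases for Klhl24 and 3917 for Rwdd2b) the 2 genes were closer than in CPM, on a scale that depends on the length used. Klhl24 averaged 20.5 CPM per kb in Sst, 31.1 in Sst+Nic, 26.0 in Thy1 and 9.35 in Thy1+Nic. Rwdd2b averaged 14.6 CPM per kb in Sst, 6.66 in Sst+Nic and 9.42 in Thy1+Nic, and its 1 fragment in Thy1 came to 0.0731 CPM per kb in replicate 2. In the 3 Thy1+Nic libraries Klhl24 was at 7.95 to 10.5 and Rwdd2b at 4.95 to 16.2 CPM per kb, with Klhl24 higher in replicates 1 and 2 and Rwdd2b higher in replicate 3.

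Family relatives of Klhl24 could be followed in part, and no part of the Cullin-3 ligase could. Of 59 Kelch-like and Cullin-3 ligase genes listed, 50 had an entry, and 4 of these passed the check of the table: Klhl24, Klhl22, Klhl6 and Kbtbd11. Klhl22 encodes a Kelch-like adaptor that acts in cell division and nutrient signalling, and it was at 142 and 241 CPM in Thy1 and at 108 to 237 CPM in Thy1+Nic. Its log2 fold change was -0.06 (SE 0.38) in Thy1-neurons and 0.09 (SE 0.30) in Sst-neurons. Kbtbd11, another BTB-Kelch gene, was at 228 and 236 CPM in Thy1 and at 172 to 296 CPM in Thy1+Nic, with a log2 fold change of 0.17 (SE 0.36). In Sst-neurons its value was -0.76 (SE 0.83). Klhl6, known from B cells, was at 0 CPM in 9 of the 10 libraries and at 4.10 CPM in 1 Sst+Nic library, and it was not tested. Of the 2 tested relatives 0 were called by edgeR, as for all entries (0.0%), and their median log2 fold changes were 0.05 in Thy1-neurons and -0.34 in Sst-neurons, against -0.0030 and 0.05 over all entries tested. These medians had no stable sign: the first was -0.02 without Thy1 replicate 3 and -0.06 with table totals, and the second was 0.20 without Sst replicate 3 and 0.03 (3 genes tested) without Sst+Nic replicate 2.

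Of the 7 kainate receptor genes listed, Grik1, which encodes GluK1, was the 1 that passed the check. Grik1 was at 45.7 to 125 CPM in the 5 libraries of Sst-neurons and at 0 to 10.4 CPM in the 5 libraries of Thy1-neurons. It was not called with nicotine in either cell type. Its log2 fold change was 0.20 (SE 0.51) in Sst-neurons (-0.09 without Sst replicate 1), and in Thy1-neurons it had no direction: 0.59 (SE 2.27) over all libraries, 7.36 without Thy1 replicate 3, -0.41 without Thy1 replicate 2 and -0.31 without Thy1+Nic replicate 1. The gene of GluK2 itself, and the 11 other RWD-domain genes listed, are not reported, since their entries did not pass.

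The genes on either side of Klhl24 and Rwdd2b were followed to see what else changed at the 2 places on the chromosome. Of the 5 genes on each side of Klhl24, 4 were tested in Thy1-neurons, 2 of them higher and 2 lower, with a median log2 fold change of -0.40 (0.39 over 5 genes without Thy1 replicate 3). The next gene downstream, Yeats2, which encodes a reader of histone acylation, was at 57.1 and 64.5 CPM in Thy1 and at 12.1, 32.5 and 42.4 CPM in Thy1+Nic. These groups did not overlap, as for 13.7% of entries in that direction, and the log2 fold change was -1.0 (SE 0.56). Map6d1, a microtubule-binding protein gene, was at -0.97 (SE 0.81) and overlapped between groups. Parl, a protease of the inner mitochondrial membrane, was at 0.44 (SE 0.33) and the processed copy Gm10241 at 0.16 (SE 0.32). In Sst-neurons 6 of the 10 were tested, 3 higher and 3 lower, with a median of 0.05 that was 0.48 (7 tested) without Sst+Nic replicate 2, -0.12 without Sst+Nic replicate 3 and 0.26 with table totals. In these libraries 2 of the 6, B3gnt5 and Parl, were higher after nicotine without overlap, against 15.6% of 6653 entries with a mean count of at least 10. On the upstream side, the long noncoding RNA A930003A15Rik was at 49.2 to 105 CPM in Sst-neurons and at 0 CPM in 4 of the 5 libraries of Thy1-neurons. None of those tested was called by edgeR or DESeq2 in either cell type, which few of all entries were.

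Around Rwdd2b, the fold changes were small or uncertain. Of the 10 nearest genes, 8 were tested in Thy1-neurons, 4 higher and 4 lower, with a median log2 fold change of -0.04 that ran from -0.17 without Thy1+Nic replicate 3 to 0.15 without Thy1 replicate 3. Of the 8, Rnf160 and Adamts5 were lower after nicotine without overlap, against 13.7% of all entries. Rnf160 (RefSeq symbol Ltn1), the ligase of ribosome quality control and the nearest gene at lower coordinates, was at 109 and 144 CPM in Thy1 and at 44.3, 93.3 and 97.2 CPM in Thy1+Nic, with a log2 fold change of -0.60 (SE 0.44). On the other side Usp16, a deubiquitinase of histone H2A, was at -0.18 (SE 0.39), and Cct8, a subunit of the TRiC chaperonin, at 0.10 (SE 0.35). N6amt1, a methyltransferase that modifies a translation termination factor, was at -0.28 (SE 0.43). The extremes were Adamts5 at -3.78 (SE 2.05) and Adamts1 at 1.80 (SE 0.91), both secreted proteases, the first with at most 19.5 CPM in any Thy1-neuron library. In Sst-neurons 7 were tested, 2 higher and 5 lower, with a median of -0.13. With table totals in place of TMM these were 6 higher and 1 lower with a median of 0.09, where the median of all entries tested moved from 0.05 to 0.27, and without Sst replicate 2 they were 5 higher and 2 lower. N6amt1 was at 44.0 to 68.6 CPM in Sst and at 19.1 and 32.9 CPM in Sst+Nic, without overlap, and its log2 fold change of -1.34 (SE 0.50) was not called (adjusted p-value 0.9998, edgeR). Of the 6653 entries, 4.69% were lower after nicotine without overlap. None of the 8 and 7 tested was called by edgeR, which called 0.0% of all entries, or by DESeq2, which called 0.231% and 0.284%, so that the absence of calls says nothing about these genes.

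**Figure D3:**
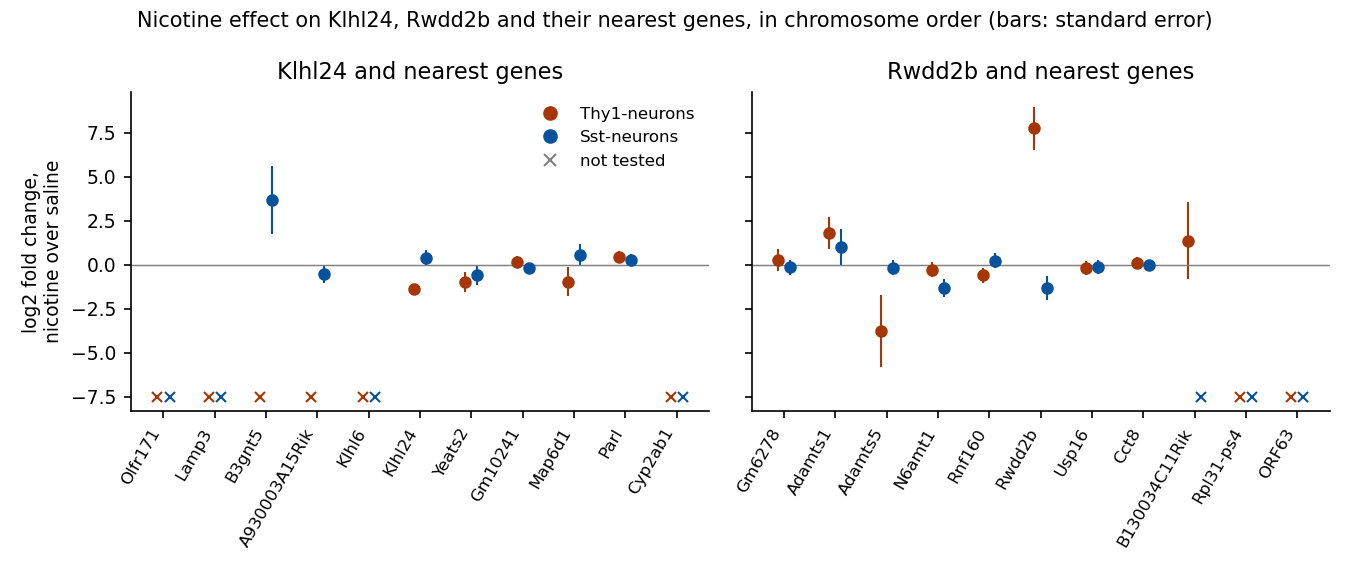
Log2 fold change of nicotine over saline, with its standard error, for Klhl24 (left) and Rwdd2b (right) and the 5 nearest genes on each side in chromosome order, evenly spaced; crosses at the bottom mark genes not tested for low counts. Rwdd2b in Thy1-neurons, at 7.77, lies above all its neighbours, of which the highest is Adamts1 at 1.80.

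The entries whose levels over the 10 libraries were most like each gene were found among 440 checked entries with a mean of at least 20 CPM, by Pearson r of log2(CPM + 1). These r describe libraries that share cell type, strain background and treatment. Closest to Klhl24 were Cadm2, a synaptic cell adhesion gene (r = 0.915), Gsk3b, which encodes a kinase of Wnt and insulin signalling (r = 0.890), and Cep97, a centrosomal protein gene (r = 0.877). They were picked for likeness over the same libraries on which Klhl24 was chosen, so that lower values in Thy1+Nic follow from the choice, and 13.7% of all entries were lower there without overlap. Cadm2 was at 3119 and 3138 CPM after saline and at 1344, 2273 and 1850 CPM after nicotine. Gsk3b was at 2747 and 2395 CPM after saline and at 809, 1716 and 1142 CPM after nicotine. Cep97 was at 47.0 and 53.8 CPM after saline and at 29.1, 11.1 and 28.9 CPM after nicotine.

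Closest to Rwdd2b were Carkd (RefSeq symbol Naxd), which encodes an enzyme that repairs damaged NAD(P)H (r = 0.841), Mrpl49, a gene of the mitochondrial ribosome (r = 0.828), and D16H22S680E (RefSeq symbol Tango2, r = 0.826). These too were picked on the libraries that chose Rwdd2b. Carkd was at 122 and 109 CPM there and at 317, 118 and 313 CPM after nicotine, with overlap. Mrpl49 was at 276 and 162 CPM after saline and at 432, 278 and 429 CPM after nicotine. D16H22S680E was at 419 and 339 CPM after saline and at 477, 478 and 840 CPM after nicotine.

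**Figure D4:**
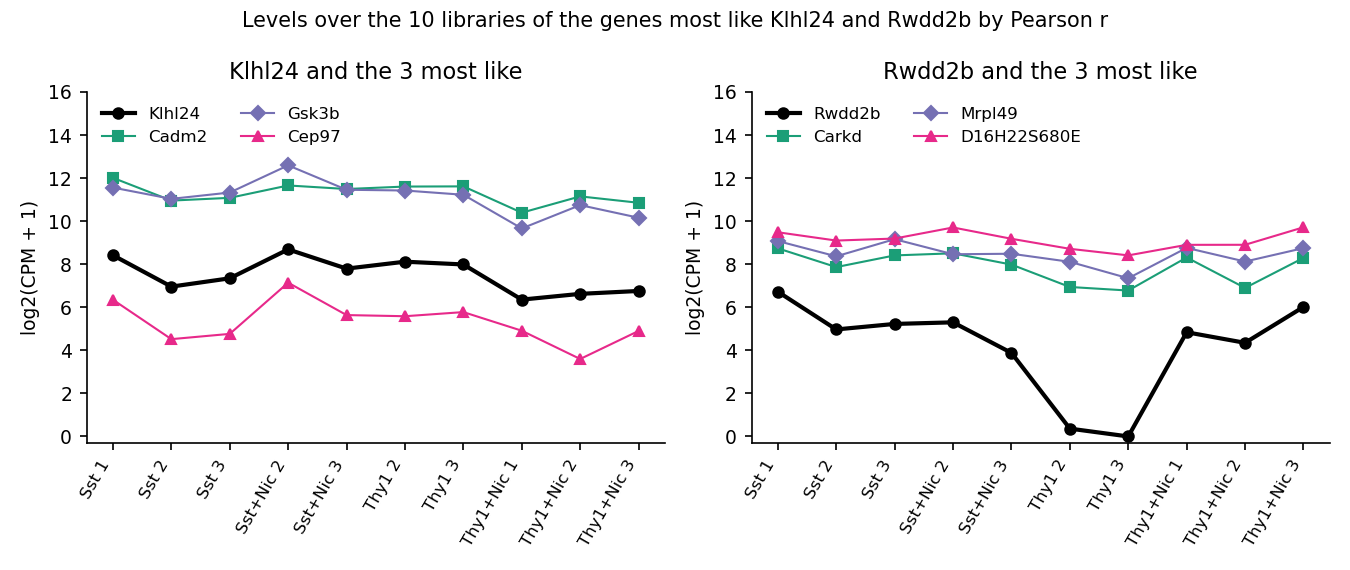
Level over the 10 libraries, as log2(CPM + 1), of Klhl24 with its 3 most like entries (left) and of Rwdd2b with its 3 (right); each point is 1 library, and lines only join the points of a gene. The 3 genes beside Klhl24 were picked for following it over these libraries, and the 3 beside Rwdd2b are lowest in Thy1 replicate 3 but stay above 100 CPM in both Thy1 libraries, where Rwdd2b is at 0.286 and 0 CPM.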

How the data were processed

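RNA from hand-picked neurons was amplified as cDNA with the SMARTer Ultra Low kit, without molecular identifiers, and sequenced in pairs. The authors trimmed the reads, aligned them with TopHat to GRCm38 and deposited unnormalized fragment counts per gene entry; HTSeq is named in the submitters' processing notes, and versions are not given in the sources used here. Replicates were single mice, not pooled. All 10 sample columns matched a sample, and 2 of 12 libraries were not analysed here. The 2 genes and all lists were chosen with earlier results of these data known.

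CPM used table totals. A model of the 5 libraries of each comparison (all 10 for the difference of nicotine effects) was fitted with edgeR 4.0.16 in R 4.3.3 (TMM, filterByExpr with minimum count 10, quasi-likelihood test, Benjamini-Hochberg over all entries tested); standard errors were derived from the fold change and F. The code was tested on simulated data. Alternatives were DESeq2 1.42.0, limma voom with quality weights (limma 3.58.1), RLE factors, table totals, other filters, mitochondrially encoded genes left out, position-checked entries alone, all libraries in 1 fit, a replicate block, leaving out each library and, added after seeing the data, the study's own totals of mapped reads as library sizes. Likeness was recomputed with a pseudocount of 10 CPM.

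The entries were checked against the study's own group values, because many held far fewer counts. Of 1721 entries compared outside the stretches that passed, 1348 held under 5% of that value. In the stretch of chromosome 16 with both genes, 0 of 48 did, and the range was 30.8% to 119%. Only the 1012 entries in such stretches, besides mitochondrially encoded genes, are named, while fits and totals used all entries. The rule allowed naming the 2 genes, list members that passed, the 5 nearest annotated genes on each side and the 3 most like entries of each.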

Additional observations from a re-analysis of the deposited data

How the results depend on the processing

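The log2 fold changes of nicotine over saline kept their sign under every alternative, for both genes in both cell types. In Thy1-neurons DESeq2 turned Klhl24 (-1.38, adjusted p-value 0.0143, over alternatives 0.0143 to 1) and Rwdd2b (8.08, adjusted p-value 0.00368) into calls; Rwdd2b was also called with no filter (7.78) and when 10 counts in 1 library sufficed (7.78). Without a fold-change threshold no further call was made. Leaving out 1 library each gave -1.44 to -1.28 for Klhl24 and 6.98 to 10.04 for Rwdd2b in Thy1-neurons, with no call, and 0.03 to 0.83 and -2.09 to -0.70 in Sst-neurons. The same exclusions gave -1.03 to -0.40 (Klhl24) and 7.32 to 10.64 (Rwdd2b) for Sst- over Thy1-neurons after saline, 0.83 to 1.46 and -1.75 to -0.46 after nicotine, and 1.41 to 2.17 and -11.65 to -8.36 for the difference of nicotine effects. Mean differences of log2(CPM + 1) in Sst-neurons ran from 0.22 to 1.11 for Klhl24 and from -1.76 to -0.34 for Rwdd2b. Klhl24 in Sst- over Thy1-neurons moved to -0.99 (SE 0.29) after saline with the replicate block and to 1.73 after nicotine with table totals without TMM. The cause was not tested. Entries called in Thy1-neurons numbered 0 by edgeR, 14 by DESeq2, 13 with no filter and 7 with at least 10 counts, and in Sst-neurons 0, 19, 8 and 0.

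Deviations of same-numbered libraries had correlations of -0.0926 to 0.024. These cannot settle whether the numbers pair the mice, since groups held 2 or 3 libraries. With the replicate block the nicotine effect was -1.28 for Klhl24 and 7.73 for Rwdd2b in Thy1-neurons and 0.78 and -0.84 in Sst-neurons, with no call. The same 3 entries were most like each gene with a pseudocount of 10 CPM. Apart from Klhl24 itself, no Kelch-like, kainate receptor or neighbouring gene was called for nicotine in either cell type under any alternative. Of the markers, Sst was called lower in Thy1-neurons under both other filters. With the study's own library totals, added after seeing the data, no value moved by more than its standard error. With 2 or 3 mice per group, and table entries that passed the check for 4 of 59 Kelch-like and ligase genes, small changes and the wider pathway could not be followed.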
